A study of Homo sapiens with 12 samples.

Results

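The genes described here are 8 members of the BTB zinc finger family of transcription factors: ZBTB16, which encodes PLZF, BCL6, HIC1, HIC2, ZBTB7A, ZBTB7B, PATZ1 and ZBTB17. They were chosen by name, and the rows of the deposited table carrying each symbol were summed. They are 8 of 46639 gene symbols in the table. The minimum for testing was 10 normalised counts in 3 or more libraries, which 7 members met among 10642 protein-coding genes, whereas BCL6 did not reach it in any library. ZBTB16 met the minimum through 6 libraries, all of them untreated or DAC, so its place among the tested genes rests on the groups in which it was high.

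BTB zinc finger proteins bind DNA through C-terminal zinc fingers. Through an N-terminal BTB domain they pair with each other, and many of them, though not all, recruit corepressors such as NCOR1 and BCOR together with histone deacetylases. In blood cells they set lineage decisions. PLZF marks progenitors and is fused to retinoic acid receptor alpha in a rare, retinoid-resistant form of acute promyelocytic leukemia. HIC1 (hypermethylated in cancer 1) is a tumor suppressor gene whose CpG island is often methylated in cancer.

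RNA was measured in MOLM-13, an acute myeloid leukemia cell line with an MLL-AF9 fusion, grown with human GM-CSF in all groups. The culture methods of the study do not name GM-CSF. The groups were untreated cells, 100 nM decitabine (DAC, which inhibits DNA methyltransferases), 1 µM all-trans retinoic acid (ATRA, the ligand of retinoic acid receptors) and DAC+ATRA at the same doses, with 3 libraries each. Per the labels the untreated libraries were taken at 96 h and the treated ones at 72 h, while the description of the design gives 72 h for the harvest. Treatment and labelled time therefore cannot be told apart in comparisons with untreated cells. No vehicle control was among the libraries, and the study added ATRA later than DAC. The libraries of a group are technical triplicates of 1 cell line, so the p-values measure only the spread within 1 experiment.

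A normalised count is the number of reads of a gene divided by the size factor of its library. Libraries without DAC held 8.36 to 11.9 M reads (M, mega) and those with DAC 4.67 to 7.16 M, so the groups differ in depth. The 6 myeloid markers summed to between 14380 and 211469 normalised counts in a library. They were uneven, with LYZ at 5282 to 184635 and PTPRC at only 5.11 to 50.1. In contrast, CD2, MS4A1, CDH1 and KRT5, defining markers of T, B and epithelial cells, had no reads in any library. The 3 T cell markers summed to 2.51 to 37.6, nearly all CD3D, and the 3 B cell markers to 2.51 to 39.8, nearly all CD79A. In bulk RNA, fewer cells of a type and less RNA per cell cannot be told apart.

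A gene was called when the limma test on log2(normalised count + 1) gave a Benjamini-Hochberg adjusted p under 0.01 over all genes tested. With DAC, 1 of the 7 tested members was called, HIC1, which was lower, and 7.97% of all genes were called. With ATRA, 2 members were called, HIC1 higher and ZBTB16 lower, beside 26% of all genes. DAC+ATRA against untreated called the same pair in the same directions, beside 28.9% of all genes. Against DAC alone, DAC+ATRA again gave HIC1 higher and ZBTB16 lower, beside 18.8%. Against ATRA alone, only HIC1 was called in the limma test, lower, beside 11.9%. These shares lie near the background of their comparisons, so the number of members called is not itself a feature of the family. Libraries of the groups did not overlap for 1 member with DAC, 3 with ATRA, 4 with DAC+ATRA, 3 between DAC+ATRA and DAC and 2 between DAC+ATRA and ATRA, beside 30.4%, 50.7%, 55.8%, 39.6% and 39.9% of all tested genes. The interaction asks whether the DAC effect on the log2 scale differed in the presence of ATRA. It gave 0 calls among the members with limma, DESeq2 and edgeR, beside 1.6% of all genes with limma, and 1 member had an unadjusted limma p under 0.05, beside 14.8% of all genes. The comparisons with untreated cells share the same 3 untreated libraries.

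**Figure D1:**
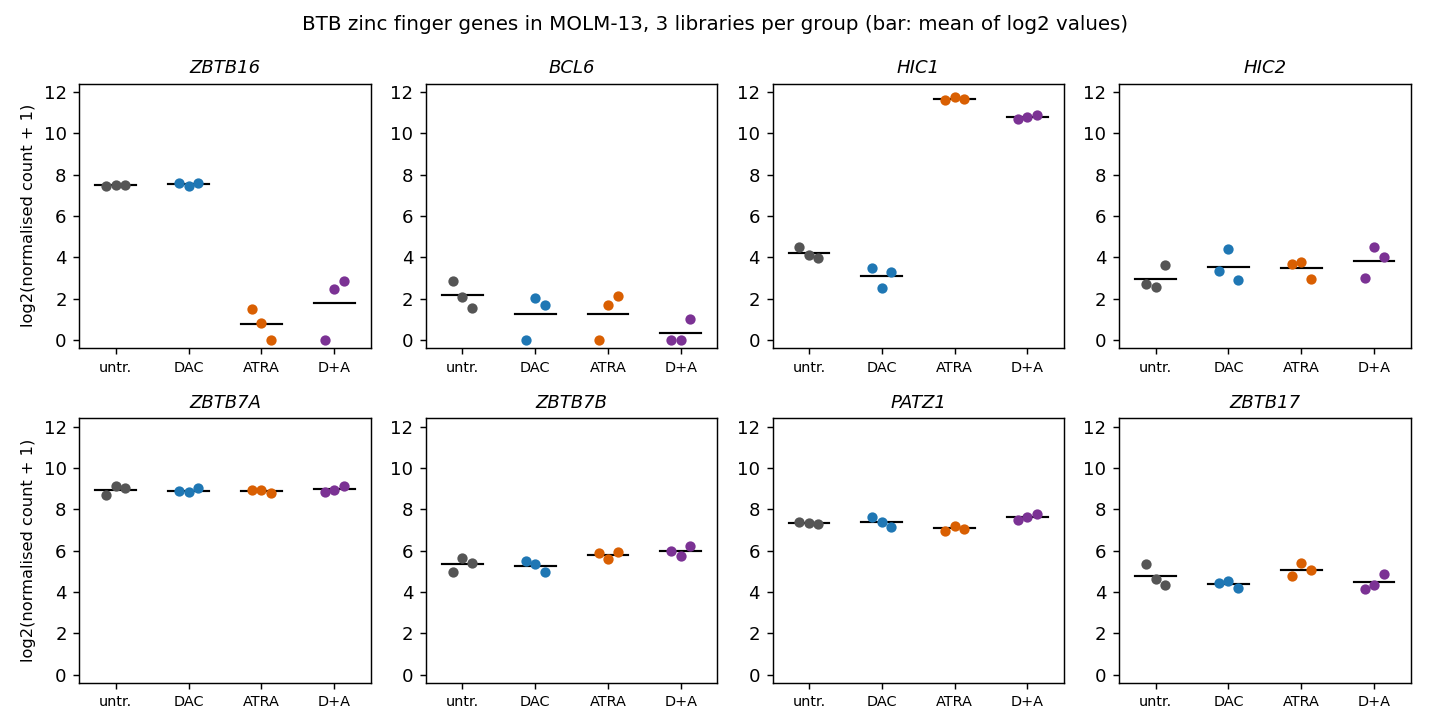
Level of each of the 8 BTB zinc finger genes as log2(normalised count + 1) in every library, by group (untr., untreated; D+A, DAC+ATRA). Points are the 3 libraries of a group and bars their mean on the log2 scale. HIC1 is high and ZBTB16 near 0 in all 6 libraries with ATRA, whereas ZBTB7A lies at a like level in all 12.

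ZBTB16 (chr11:114059041-114256765, plus strand, hg38), the gene of PLZF, fell to near 0 in the libraries with ATRA. It held 173, 181 and 178 normalised counts in the untreated libraries and 193, 174 and 192 in the DAC libraries. With ATRA it held 1.79, 0.744 and 0, which stand for 2, 1 and 0 reads, and with DAC+ATRA 0, 4.50 and 6.13, which stand for 0, 4 and 6 reads. Every library without ATRA lay far above every library with it, and the untreated and DAC libraries overlapped.

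The mean of ZBTB16 was 178 ± 3.85 (SD, n = 3) in untreated and 186 ± 10.7 in DAC cells, against 0.845 ± 0.900 with ATRA and 3.54 ± 3.17 with DAC+ATRA. In the limma fit the log2 fold change was -6.72 ± 0.54 (SE) for ATRA (adjusted p = 7.08e-09) and -5.72 ± 0.54 for DAC+ATRA (adjusted p = 7.48e-08), both against untreated. Called in the same direction under all 23 alternative settings, these values depend on the pseudocount because few reads were left. As a ratio of reads scaled for depth, the untreated level was 216 times the ATRA level, with an exact 95% interval for counting error of 73.7 to 1052, since 3 ATRA reads stood against 730 untreated ones. For DAC+ATRA, with 10 reads, the ratio was 45.8 (24.8 to 96.0).

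DAC alone did not move ZBTB16 measurably. Its log2 fold change was 0.07, with a 95% interval of -1.06 to 1.19 and an adjusted p of 0.956 in limma. That interval rests on a spread shared by all 12 libraries, among them those with ATRA that held 0 to 6 reads. It is therefore not a measure of the spread within the untreated and DAC libraries. With only these groups in the limma fit the adjusted p was 0.796. Between both groups with ATRA, the level with DAC+ATRA was nominally higher, by 1.00 on the log2 scale (interval -0.12 to 2.13, limma adjusted p = 0.205). Their libraries overlapped, because DAC+ATRA replicate 1 held no read. Without that library the log2 fold change was 1.89, with a limma adjusted p of 0.00208. Of 23 alternatives, only this 1 called the difference. Leaving out libraries singly gave log2 fold changes of 0.47 to 1.89. The ratio of reads was 4.72, with a counting interval of 1.22 to 26.7, and at 3 against 10 reads no firmer statement was possible. Nearly all reads fell on the transcript ENST00000335953, which starts at position 114059711, and the second transcript with reads, ENST00000392996, held 3 reads in all.

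HIC1 (chr17:2054154-2063241, plus strand) showed the opposite pattern. It held 21.8, 16.2 and 14.4 normalised counts in untreated libraries and 10.2, 4.70 and 8.71 in DAC libraries. It reached 3088, 3423 and 3204 with ATRA and 1657, 1750 and 1913 with DAC+ATRA. No group overlapped another, and the order was DAC, untreated, DAC+ATRA and ATRA from low to high.

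The group means of HIC1 were 17.5 ± 3.83 (untreated), 7.86 ± 2.83 (DAC), 3238 ± 170 (ATRA) and 1774 ± 130 (DAC+ATRA; SD, n = 3 each). The log2 fold change was 7.47 ± 0.21 for ATRA (limma adjusted p = 1.41e-15) and 6.60 ± 0.21 for DAC+ATRA (limma adjusted p = 1.22e-14) against untreated. As ratios of reads, these were 188 (counting interval 149 to 241) and 103 (81.9 to 133). All 23 alternative settings called both.

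Smaller differences in HIC1 accompanied DAC. Against untreated cells DAC gave a log2 fold change of -1.10 (interval -1.53 to -0.66, limma adjusted p = 0.00114). This rested on 71 untreated and 19 DAC reads, and 3 of 23 alternatives did not call it: the adjusted p was 0.0321 with DESeq2, 0.0164 with edgeR and 0.0996 with only both groups in the limma fit. Against ATRA alone, DAC+ATRA gave -0.87 (interval -1.30 to -0.44, limma adjusted p = 0.00516), with 1184 to 4600 reads per library. That call was lost when any 1 of the 6 libraries with ATRA was left out, with adjusted p between 0.0134 and 0.0331 and log2 fold changes between -0.93 and -0.82, and with a pseudocount of 0.1 (adjusted p = 0.0114). The other 16 of 23 alternatives, DESeq2 and edgeR among them, called it. DAC thus went with a lower HIC1 value both without and with ATRA, and the interaction was 0.23 (interval -0.39 to 0.84, limma adjusted p = 0.81).

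**Figure D2:**
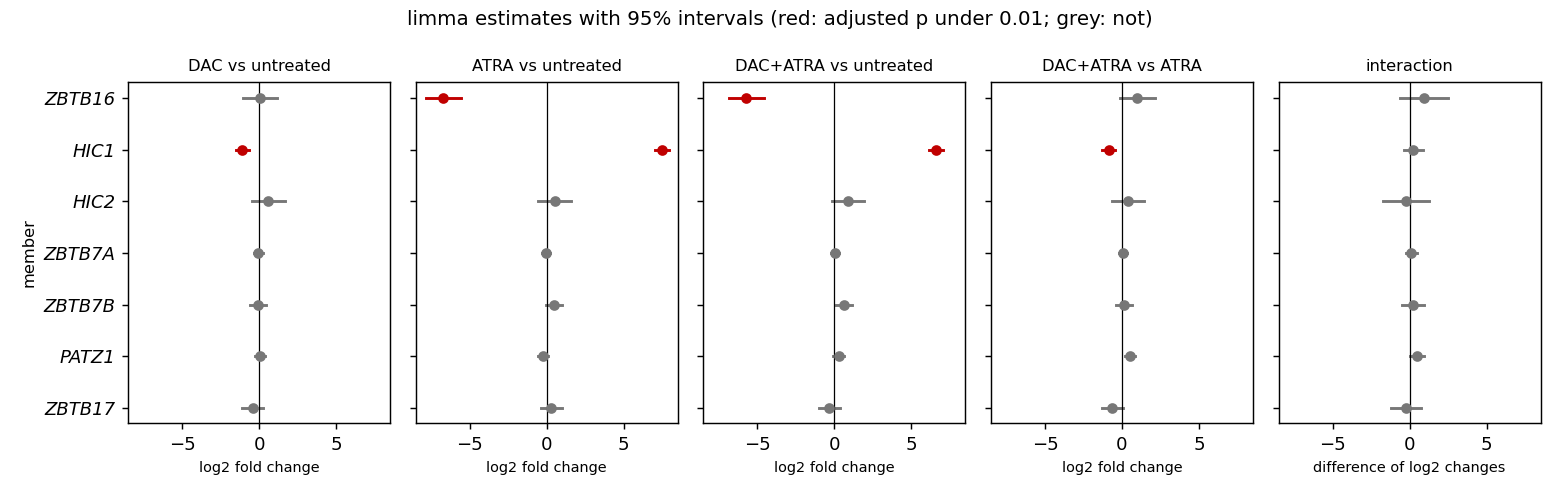
Log2 fold changes of the 7 tested members (limma, points) with 95% intervals (lines) in 4 comparisons, and the interaction as a difference of log2 changes. Red marks an adjusted p under 0.01. HIC1 stands at 7.47 and ZBTB16 at -6.72 with ATRA, and no interaction is red.

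The 3' part of HIC1 lies across another gene. SMG6, which encodes an endonuclease of nonsense-mediated decay, runs on the minus strand from 2059839 to 2303785 and shares 3403 bases with HIC1. The libraries were strand-specific, but whether the counting used strand is not stated, so reads from both genes cannot be told apart in that stretch. SMG6 held 231, 256 and 302 normalised counts in untreated libraries, 196, 198 and 211 with DAC, 527, 551 and 648 with ATRA and 302, 356 and 349 with DAC+ATRA. Its group means thus stood in the same order as those of HIC1. Its log2 fold change was 1.13 for ATRA (limma adjusted p = 1.66e-06), 0.36 for DAC+ATRA (0.042) and -0.37 for DAC (0.068) against untreated, and -0.77 for DAC+ATRA against ATRA (0.000385).

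Of 3 HIC1 transcripts in the table, ENST00000619757 (2055103-2063241) spans the shared stretch and took 94.8% of the HIC1 value over all libraries. The others end at 2059686, before SMG6 begins. ENST00000322941 (2056310-2059686) held 1 read in all untreated and DAC libraries together, 114, 141 and 132 normalised counts with ATRA and 84.0, 116 and 95 with DAC+ATRA. Its log2 fold change was 6.78 with ATRA (limma on transcript rows, adjusted p = 4.61e-11) and 6.39 for both drugs (adjusted p = 1.25e-10). ENST00000399849 (2055099-2059686) rose as well, by 4.08 (adjusted p = 2.40e-05) and 3.35 (adjusted p = 0.000223). The rise of HIC1 with ATRA was therefore present in rows that share no base with SMG6. From ATRA to DAC+ATRA the log2 change was -0.39 for ENST00000322941 (interval -1.23 to 0.44, limma adjusted p = 0.571) and -0.89 for ENST00000619757 (adjusted p = 0.00595), and the DAC difference rested on ENST00000619757 alone, since the other rows held 1 read each in the untreated libraries. The part of SMG6 reads in these smaller differences was not tested.

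**Figure D3:**
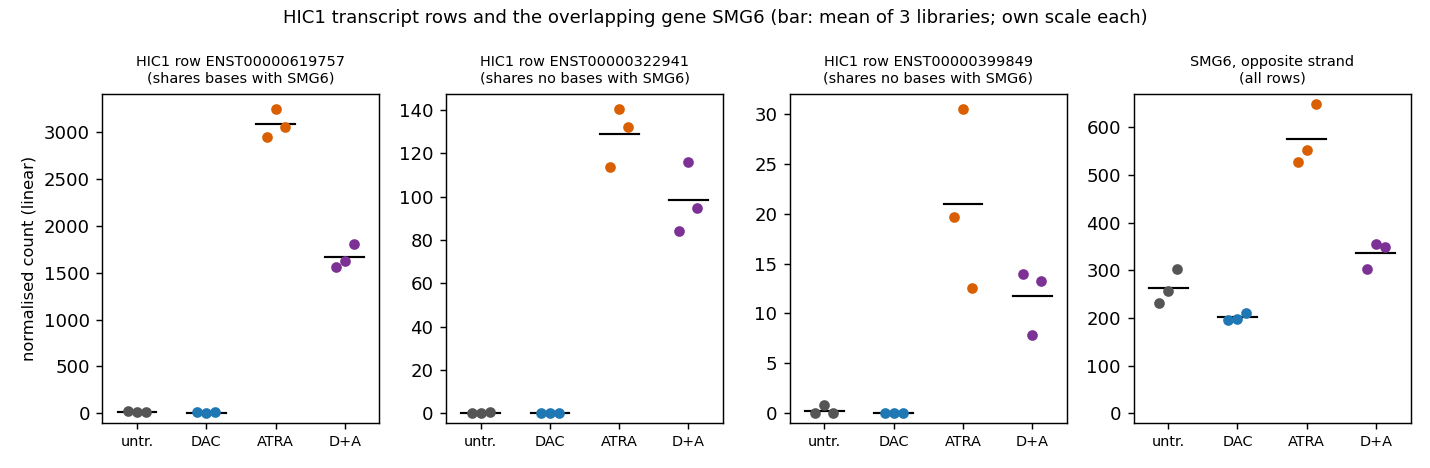
Normalised counts of the 3 HIC1 transcript rows and of SMG6 in every library, each panel on its own linear scale (points, libraries; bars, means of 3). Both rows without bases of SMG6 are near 0 without ATRA and reach group means of 129 and 20.9 with ATRA.

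HIC2 (chr22:21417371-21451463, plus strand), the paralogue of HIC1, stayed at low counts. It held 5.44, 4.87 and 11.3 normalised counts in untreated libraries, 8.90, 20.4 and 6.53 with DAC, 11.6, 12.7 and 6.69 with ATRA and 7.0, 21.4 and 15.3 with DAC+ATRA. All groups overlapped. The widest difference was that of DAC+ATRA against untreated, 0.88 on the log2 scale, with an interval of -0.17 to 1.94 and a limma adjusted p of 0.176. The changes of HIC1 with ATRA lie outside that interval. For DAC against untreated the HIC2 interval was -0.46 to 1.65, and for DAC+ATRA against ATRA it was -0.67 to 1.43. The HIC1 estimates in these comparisons, -1.10 and -0.87, lie below them.

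BCL6 (chr3:187721377-187745725, minus strand), the repressor that maintains germinal centre B cells, was close to absent. It held 6.22, 3.25 and 1.88 normalised counts in untreated libraries, 0, 3.14 and 2.18 with DAC, 0, 2.23 and 3.34 with ATRA and 0, 0 and 1.02 with DAC+ATRA. No library held more than 8 reads, and all 12 together held 27 reads. Fitted without the minimum level, DAC+ATRA against untreated gave a log2 fold change of -1.82 with a limma adjusted p of 0.0388, based on 15 untreated reads and 1 read, which is not a call at the threshold used.

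ZBTB7A (chr19:4043303-4066899, minus strand), also known as LRF, is a repressor of fetal globin genes and of glycolysis genes. ZBTB7B (chr1:155002630-155018523, plus strand), or ThPOK, directs CD4 T cell fate. Because DAC acts on methylated CpG sites and retinoic acid receptors bind repeats of AGGTCA or GGGTCA, the 250 bases before a start site of each are shown from RefSeq (GRCh38.p14), CpG sites in capitals, read 5′ to 3′ on the strand of the gene. Entries were matched by symbol for BCL6, HIC2, ZBTB7A and ZBTB7B, and those of BCL6 and HIC2 are not shown. The promoter set held no entry for ZBTB16, HIC1, PATZ1 and ZBTB17, so the called members could not be shown.
ZBTB7A, chr19:4066900-4067149: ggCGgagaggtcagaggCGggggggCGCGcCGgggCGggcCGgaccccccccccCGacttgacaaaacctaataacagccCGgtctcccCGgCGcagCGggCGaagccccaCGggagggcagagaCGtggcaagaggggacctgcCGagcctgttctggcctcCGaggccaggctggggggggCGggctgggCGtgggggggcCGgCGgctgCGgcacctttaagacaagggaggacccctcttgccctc
ZBTB7B, chr1:155002399-155002648: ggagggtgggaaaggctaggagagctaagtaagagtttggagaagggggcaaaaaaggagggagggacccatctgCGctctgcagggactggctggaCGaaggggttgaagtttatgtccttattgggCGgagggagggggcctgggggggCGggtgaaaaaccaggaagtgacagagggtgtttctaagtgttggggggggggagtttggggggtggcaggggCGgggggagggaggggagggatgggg

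The ZBTB7A window holds 22 CpG sites and the ZBTB7B window 5, against a median of 11 over 35116 promoter windows of that length. AGGTCA occurs 1 time in the ZBTB7A window and on neither strand of the ZBTB7B window. GGGTCA occurs in neither. RefSeq gives a second start site for each gene, and the 250 bases before it hold 33 CpG sites and 1 GGGTCA for ZBTB7A, and 10 CpG sites and neither motif for ZBTB7B. Each motif is found on either strand in 12.1% of all windows, and a match is a description of letters only.

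ZBTB7A differed little between groups despite good depth. It held 411, 554 and 523 normalised counts in untreated libraries, 467, 453 and 514 with DAC, 491, 486 and 448 with ATRA and 462, 492 and 553 with DAC+ATRA. The groups overlapped throughout. Against untreated, the log2 fold change was -0.04 for DAC (interval -0.31 to 0.22), -0.05 for ATRA (-0.32 to 0.22) and 0.03 for DAC+ATRA (-0.24 to 0.29). These intervals are the narrowest among the tested members.

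ZBTB7B held 30.3, 49.5 and 41.4 normalised counts in untreated libraries, 44.5, 39.2 and 30.5 with DAC, 57.3, 47.6 and 61.0 with ATRA and 61.6, 51.8 and 72.5 with DAC+ATRA. The DAC+ATRA libraries lay above all untreated and all DAC libraries, a separation that 55.8% and 39.6% of all tested genes also showed in these comparisons. Its log2 fold change for DAC+ATRA was 0.62 against untreated (interval 0.10 to 1.14, limma adjusted p = 0.0533) and 0.69 against DAC (0.17 to 1.21, adjusted p = 0.042). Neither reached the threshold of 0.01. The value for ATRA was 0.46 (-0.05 to 0.98, adjusted p = 0.156).

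PATZ1 (chr22:31325804-31346346, minus strand) encodes a factor known from thymocytes as MAZR, a repressor of CD8 genes. It held 166, 162 and 156 normalised counts in untreated libraries, 200, 168 and 143 with DAC, 125, 147 and 133 with ATRA and 175, 196 and 215 with DAC+ATRA. The ATRA libraries lay below and the DAC+ATRA libraries above all untreated libraries, whereas the DAC libraries spanned the untreated range. The groups with ATRA alone and with both drugs did not overlap, as was the case for 39.9% of all tested genes.

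For PATZ1 the log2 fold change was -0.26 for ATRA (interval -0.59 to 0.07, limma adjusted p = 0.208) and 0.27 for DAC+ATRA (-0.06 to 0.60, adjusted p = 0.183) against untreated. Between these, DAC+ATRA exceeded ATRA by 0.53 (0.21 to 0.86, adjusted p = 0.0201), short of the threshold. DESeq2 called it, with an adjusted p of 0.00873, as did limma without DAC replicate 3 (0.00732). PATZ1 was the member with an unadjusted interaction p under 0.05: the interaction was 0.47 (0.01 to 0.93), with an unadjusted limma p of 0.0469 and an adjusted p of 0.327. The shorter transcript ENST00000215919 (31340677-31345776), which carried most of the value, gave 0.60 for DAC+ATRA against ATRA (limma on transcript rows, adjusted p = 0.0359), and the longer ENST00000266269 gave 0.32 (adjusted p = 0.574).

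ZBTB17 (chr1:15941869-15976132, minus strand), or MIZ-1, binds MYC and represses cell cycle inhibitor genes with it. It held 40.4, 23.5 and 19.4 normalised counts in untreated libraries, 20.4, 22 and 17.4 with DAC, 26.0, 41.7 and 32.6 with ATRA and 16.8, 19.1 and 28.6 with DAC+ATRA. Untreated replicate 1 lay high, and all groups but ATRA and DAC overlapped. The widest difference was that of DAC+ATRA against ATRA, -0.62, with an interval of -1.31 to 0.06 and a limma adjusted p of 0.196.

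The rest of the family was read from a list of 41 other BTB zinc finger genes, of which 30 were tested. DAC called 1 of them, lower, ATRA called 4 (3 higher, 1 lower) and DAC+ATRA called 7 (4 higher, 3 lower), all against untreated. The shares were 3.33%, 13.3% and 23.3%, below those of all genes in each case, and the median log2 fold change was -0.16, 0.067 and 0.0011, against -0.0041, -0.038 and -0.0039 for all tested genes. ZBTB46, a marker of classical dendritic cells, had no read in untreated libraries and reached 15.0 ± 2.14 normalised counts with ATRA and 7.0 ± 0.876 with DAC+ATRA. Set against a floor of 3 reads per untreated library, it was at least 6.77-fold higher with ATRA and at least 3.16-fold higher with DAC+ATRA, and limma called both (adjusted p = 3.03e-05 and 0.000565). It met the minimum for testing through the ATRA libraries alone, so its place among the tested genes, and the call, rest on the group in which it was high.

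With DAC+ATRA, ZBTB47 rose from 63.1 ± 6.47 to 133 ± 9.99 (log2 fold change 1.07, limma adjusted p = 0.00134) and ZBTB48, which binds telomeric repeats, from 546 ± 37.8 to 754 ± 30.8 (0.47, adjusted p = 0.00292). ZBTB41 fell from 607 ± 51.9 to 367 ± 25.6 (-0.72, adjusted p = 0.000475). It was also the gene called with DAC alone, at 404 ± 78.8 (-0.60, adjusted p = 0.007). ZBTB25 (-0.70, adjusted p = 0.00185) and ZBTB5 (-0.68, adjusted p = 0.000492) fell with DAC+ATRA as well. From DAC to DAC+ATRA 3 genes of the list were called, all higher, which is 10% of those tested beside 18.8% of all genes. From ATRA to DAC+ATRA 2 were called, both lower, ZBTB41 and ZBTB20, which is 6.67% beside 11.9%. No gene of the list had a limma log2 fold change as large as those of HIC1 and ZBTB16 with ATRA.

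Corepressors and partners of these proteins were a list of 30 genes with 25 tested. ATRA called 3 and DAC+ATRA 5 against untreated, all higher, which is 12% and 20% of those tested, beside 26% and 28.9% of all genes. With DAC alone limma, DESeq2 and edgeR called 0, and 7 of the 25 had an unadjusted limma p under 0.05, beside 28.7% of all genes. Under DAC+ATRA, GPS2, a subunit of the NCOR complex, rose from 26.4 ± 7.36 to 54.4 ± 1.48 normalised counts (1.05 on the log2 scale, limma adjusted p = 0.00235). MTA2, of the NuRD complex, rose from 323 ± 49.8 to 618 ± 51.0 (0.94, adjusted p = 0.000256). SIN3B, a scaffold for histone deacetylases, rose from 56.7 ± 11.5 to 107 ± 6.83 (0.93, adjusted p = 0.000727). The median of the list with DAC+ATRA was 0.089, against -0.0039 for all tested genes, and most of its genes were called in neither direction.

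**Figure D4:**
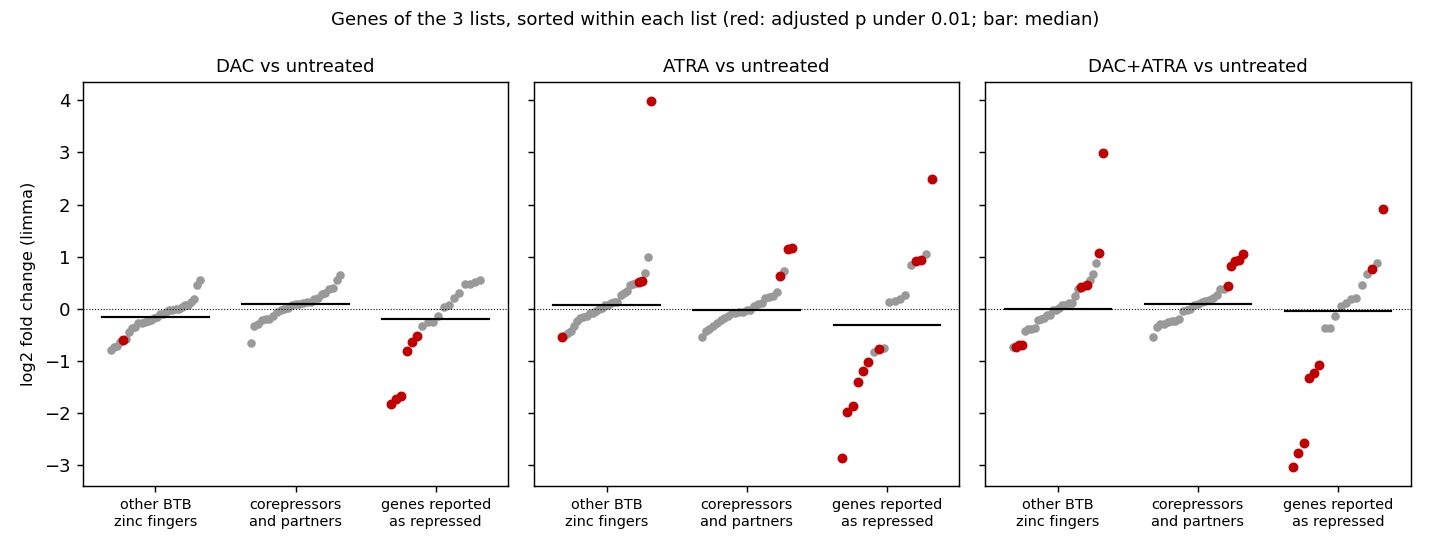
Log2 fold changes (limma) of the tested genes of 3 lists, sorted within each list, for DAC, ATRA and DAC+ATRA against untreated. Red points have an adjusted p under 0.01 and bars are medians. The called corepressor genes all lie above 0, and most called genes among those reported as repressed by a member lie below 0.

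A list of 26 genes reported as repressed by a member, written from general knowledge, had 18 tested. DAC called 6, all lower, ATRA called 10 (3 higher, 7 lower) and DAC+ATRA called 8 (2 higher, 6 lower) against untreated. These are 33.3%, 55.6% and 44.4% of those tested, beside 7.97%, 26% and 28.9% of all genes, and the median log2 fold change was -0.19, -0.32 and -0.044, against -0.0041, -0.038 and -0.0039 for all genes. The interaction was called for CCND2 (1.45) and CD44 (-1.91). The list joins targets of different members, studied in other cell types. It was chosen with earlier results of these data known, so its shares describe these genes only and are not evidence about targets.

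With DAC+ATRA, BCL2, an anti-apoptotic gene reported as a target of BCL6, fell from 977 ± 19.7 to 120 ± 28.4 normalised counts (log2 fold change -3.04, limma adjusted p = 1.34e-10). With ATRA alone it stood at 134 ± 24.8. BCL6 itself held 27 reads over all libraries, and a link between BCL6 and BCL2 was not tested. Also with DAC+ATRA, CD69, a leukocyte activation antigen, fell from 67.1 ± 15.4 to 8.90 ± 1.07 (-2.76, adjusted p = 1.43e-06). The glucose transporter gene SLC2A3 fell from 9196 ± 1004 to 1541 ± 58.4 (-2.57, adjusted p = 7.42e-11), with 2576 ± 216 under DAC and 4674 ± 1429 under ATRA. DUSP6, a phosphatase of ERK, rose from 308 ± 36.5 to 1151 ± 22.4 (1.91, adjusted p = 1.55e-09), and the DNA damage kinase gene ATR from 66.3 ± 9.46 to 113 ± 7.70 (0.77, adjusted p = 0.00178).

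SIRT1, named here after its values were seen because HIC1 is known to repress it, held 147 ± 17.8 normalised counts in untreated cells. It stood at 282 ± 31.0 with ATRA (log2 fold change 0.94, limma adjusted p = 0.000213), where HIC1 was highest, and at 154 ± 31.9 with DAC+ATRA. The difference between both groups with ATRA was -0.88 (adjusted p = 0.000916).

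Finally, the tested genes whose pattern over the 12 libraries was most like that of each main member were found by the root-mean-square difference in log2(normalised count + 1), each gene centred on its own mean. For ZBTB16 these were RHEX, PPP1R3A and KLHDC7B, with differences of 0.743, 0.832 and 0.983 against a median of 3.23 over all genes. RHEX went from 156 ± 27.8 in untreated and 157 ± 15.2 in DAC cells to 0 reads in all ATRA libraries and 1.93 ± 1.27 with DAC+ATRA. For HIC1 they were TGM2, EXOC3L2 and CLEC10A, with differences of 0.505, 0.626 and 0.644 against a median of 3.86. TGM2, which encodes a transglutaminase, went from 77.6 ± 6.56 in untreated and 45.5 ± 4.74 in DAC cells to 14356 ± 1449 with ATRA and 15517 ± 254 with DAC+ATRA, and CLEC10A, a lectin of macrophages and dendritic cells, from 2.78 ± 1.44 to 1016 ± 168 and 280 ± 36.0. These genes were picked for the smallest differences, so their distance from the median follows from the choice. All but TGM2 met the minimum for testing only through the groups in which they were high. BCL6 was not ranked because of its few reads.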

How the data were processed

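Total RNA depleted of ribosomal RNA was made into strand-specific paired-end libraries. Per the submitters' notes and the methods, the authors used FastQC for read quality, STAR for alignment (hg38), htseq-count (HTSeq) for counting and DESeq2 for testing. The deposited values are a normalised signal, read counts divided by 1 size factor per library by the authors, in 100502 rows of Ensembl transcripts. In all 12 libraries 100% of values were whole multiples of 1 step within a tolerance of 0.01 reads, so reads were recovered. Size factors recomputed with DESeq2 differed from those of the authors by at most 2.54e-09%. Whether counting used strand is not given in the sources used here. Counting per transcript can leave out reads shared by transcripts, so levels were not compared between genes.

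Rows were summed per symbol. Annotation was GENCODE release 44 on GRCh38, the assembly of hg38, and 88.9% of rows matched one of its transcripts. Columns named CTRL were taken as untreated. limma 3.58.1 in R 4.3.3 (lmFit, eBayes with trend) was run on log2(normalised count + 1) with all 12 libraries in 1 fit. This scale understates changes of low genes. The test covered protein-coding genes that reached 10 normalised counts in 3 or more libraries, and adjusted p-values are Benjamini-Hochberg within each comparison, with a threshold of 0.01. The fit was tested on simulated data. Intervals of read ratios are exact and cover counting error only.

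The members, lists and tests were chosen with earlier results of these data known. All 8 members were described. From each list the genes called in DAC+ATRA against untreated were named, up to 3 higher and 3 lower by size of change, and for ZBTB16 and HIC1 the 3 genes of most similar pattern. The rule also named BCL6 for this, which was not ranked because it did not reach the minimum. Alternatives were DESeq2 1.42.0 and edgeR 4.0.16 (TMM factors) on recovered reads, other scalings, pseudocounts of 0.1 and 5, no minimum level, all symbols, transcript rows singly, only the compared groups, a replicate block, a threshold of 0.05, and leaving out each library.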

Additional observations from a re-analysis of the deposited data

Results flagged for a closer look

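The DAC effect differed with and without ATRA for 2 genes of the list of genes reported as repressed by a member, named here for that reason. CCND2, the cyclin D2 gene, reported as a target of the nearly absent BCL6, had an interaction of 1.45 on the log2 scale (limma adjusted p = 3.44e-06). It held 1557, 1517 and 1520 normalised counts in untreated libraries, 1521, 1578 and 1715 with DAC, 607, 598 and 545 with ATRA and 1635, 1663 and 1703 with DAC+ATRA, so that only the ATRA libraries lay low. CD44, a hyaluronan receptor, had an interaction of -1.91 (limma adjusted p = 0.00439). It held 38.1, 38.2 and 40.1 normalised counts in untreated libraries, 26.7, 40.8 and 31.6 with DAC, 86.0, 60.3 and 66.0 with ATRA and 14, 18.0 and 13.3 with DAC+ATRA. The ATRA libraries were the highest and the DAC+ATRA libraries the lowest.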

How the results depend on the processing

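HIC1 and ZBTB16 kept their direction and their call for ATRA, for DAC+ATRA against untreated and for DAC+ATRA against DAC under all alternatives run. The count of members called with DAC against untreated fell from 1 to 0 with DESeq2, with edgeR and in a fit of the compared groups alone. For DAC+ATRA against ATRA it was 2 with a threshold of 0.05 and with DESeq2, 0 with a pseudocount of 0.1, and 0 to 2 when libraries were left out singly. It was 0 without any 1 of the ATRA libraries or without DAC+ATRA replicate 2 or 3, and 2 without DAC replicate 3. The causes were not tested.

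On the recovered reads, edgeR called 949 genes with DAC, 2946 with ATRA and 3230 with DAC+ATRA against untreated, where limma called 848, 2772 and 3077. Over all genes, a threshold of 0.05 in place of 0.01 called 1638 with DAC, 3055 for DAC+ATRA against DAC, 2244 for DAC+ATRA against ATRA and 386 for the interaction. Fitted on the compared groups alone, DAC called 371, and DESeq2 called 323 for the interaction. Leaving out single libraries gave 509 to 1385 genes for DAC (509 without untreated replicate 2, 540 without untreated replicate 1, 1385 without DAC replicate 3), 819 to 1778 for DAC+ATRA against ATRA (819 without replicate 2 of either group) and 106 to 262 for the interaction (106 without untreated replicate 2, 112 without DAC+ATRA replicate 2, 262 without DAC replicate 3).

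Small log2 fold changes that were called neither way turned sign. With transcript rows fitted singly, ZBTB7B stood at 0.11 for DAC and at -0.027 for the interaction, and ZBTB17 at 0.12 for the interaction. With a pseudocount of 5 the HIC1 interaction was -0.051. Leaving out libraries gave ranges for DAC of -0.17 to 0.042 (ZBTB7A), -0.26 to 0.084 (ZBTB7B) and -0.060 to 0.18 (PATZ1). They were -0.18 to 0.034 for ATRA and -0.10 to 0.11 for DAC+ATRA against untreated in ZBTB7A. For DAC+ATRA against DAC they were -0.033 to 0.73 (HIC2), -0.0017 to 0.13 (ZBTB7A) and -0.14 to 0.23 (ZBTB17), and for the interaction -0.062 to 0.42 (HIC1) and -0.55 to 0.22 (HIC2).

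Libraries with the same replicate number did not deviate together, with correlations between -0.26 and 0.11 and 2 of 18 pairs over 0.1, so the numbers were not taken as pairs. With a replicate block, 742 genes were called with DAC, 2572 with ATRA and 2832 with DAC+ATRA, and the counts of members called were 1, 2 and 2. No scaling moved the median of all genes by more than 0.1. Few reads limit BCL6, HIC2, ZBTB17 and, with ATRA, ZBTB16.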
